A study of Mus with 6 samples.

Results

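Proteases that cut the extracellular matrix, and the proteins that restrain them, were examined in the RNA of mouse knee chondrocytes with and without Sirt6, a NAD+-dependent deacetylase. The members were taken by gene name: matrix metalloproteinases (Mmp), ADAM and ADAMTS proteases, ADAMTS-like proteins, Timp and Reck inhibitors, serpins, HtrA and Prss serine proteases, the plasminogen activation system and the proprotein convertases. Of the 11659 rows of the count table, 24 were members. The collagen-processing genes Adamts2 and Adamts14 and the serpins Serpinh1 and Serping1 were left out by the rule. Members were also limited to rows in 2 ranges of the Ensembl identifier number, where labels and counts line up, and 14 further rows of these families lay outside those ranges and were not used here. Of the 7 aggrecanases and the 5 collagenases on the lists, 0 were analysed here, so the genes best known for cartilage breakdown contribute no value below.

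Cells came from the knee cartilage of C57BL/6J mice at 12 weeks of age, with 3 samples of wild type (WT) and 3 of mice that lack Sirt6 conditionally in cartilage (Sirt6 cKO). The knockout combines Sirt6 flox/flox alleles with Col2a1-CreERT2, a tamoxifen-dependent recombinase driven by the promoter of a cartilage collagen, so Sirt6 is removed in cells that express that promoter when tamoxifen is given. The sources used here do not state whether the WT animals of this experiment carried floxed alleles or Cre, when these animals received tamoxifen, or whether a sample was 1 mouse or a pool, so p-values measure the spread between these samples. The methods describe chondrocytes released by enzymes and grown to the first passage, and cultured chondrocytes are known to lose part of their cartilage character.

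The total count lay between 25726958 and 30156935 per sample, and all 24 members had enough counts to be tested. Sirt6 reached raw counts of 10273, 9963 and 10943 across the WT replicates, against 1056, 862 and 660 across those of Sirt6 cKO, a 12.9-fold decrease. WT replicate 1 stood apart. Across genes, the log2 counts of that library had a correlation of 0.969 to 0.971 with the remaining WT libraries, which reached 0.993 with each other. The cell type label was checked against markers in the rows that line up, where Col2a1 and Acan were not analysed. Of the 5 chondrocyte markers analysed, Sox9 had 4917 to 5595 raw counts in WT, whereas Ucma had 2 to 6 and Comp 14 to 28. Col11a1 had 143 to 235 and Col9a3 151 to 180.

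Matrix metalloproteinases and ADAMTS proteases are zinc enzymes that are made as inactive precursors and are switched on outside the cell or on its way out of it. Timp proteins plug their active site, and Reck, a membrane-anchored glycoprotein, restrains several of them at the cell surface. ADAM proteins are their membrane-bound relatives and cut growth factors and receptors off the cell surface. Serpins trap serine proteases by a one-way change of shape. In joint cartilage the balance of these enzymes and inhibitors is known to set how fast aggrecan and collagen are lost.

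The genotype effect was estimated with edgeR (quasi-likelihood F-test, Benjamini-Hochberg adjustment over all 11246 tested rows). A gene counted as called where its adjusted p was below 0.05 and its expression ratio, Sirt6 cKO to WT, was above 2 or below 0.5. Mmp2, Mmp11, Adam19, Adamts6, Reck and Prss23 rose in Sirt6 cKO chondrocytes, and Timp1 and Htra3 fell. These are 6 higher and 2 lower of 24 members, which is 33.3%, against 15.9% of all tested rows (8.72% higher and 7.15% lower). Without a fold threshold, 11 members passed, which is 45.8%, against 46.8% of all rows, a share close to the background. The median log2 fold change was 0.20 over the members and 0.00 over all tested rows. Among the 8 metalloproteinases (Mmp, Adam and Adamts), 4 rose and 0 fell, with a median log2 fold change of 1.27. Since members were chosen by name with earlier results of these data known, these counts describe the group and test nothing about it. The plot of fold changes by class shows all 24.

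**Figure D1:**
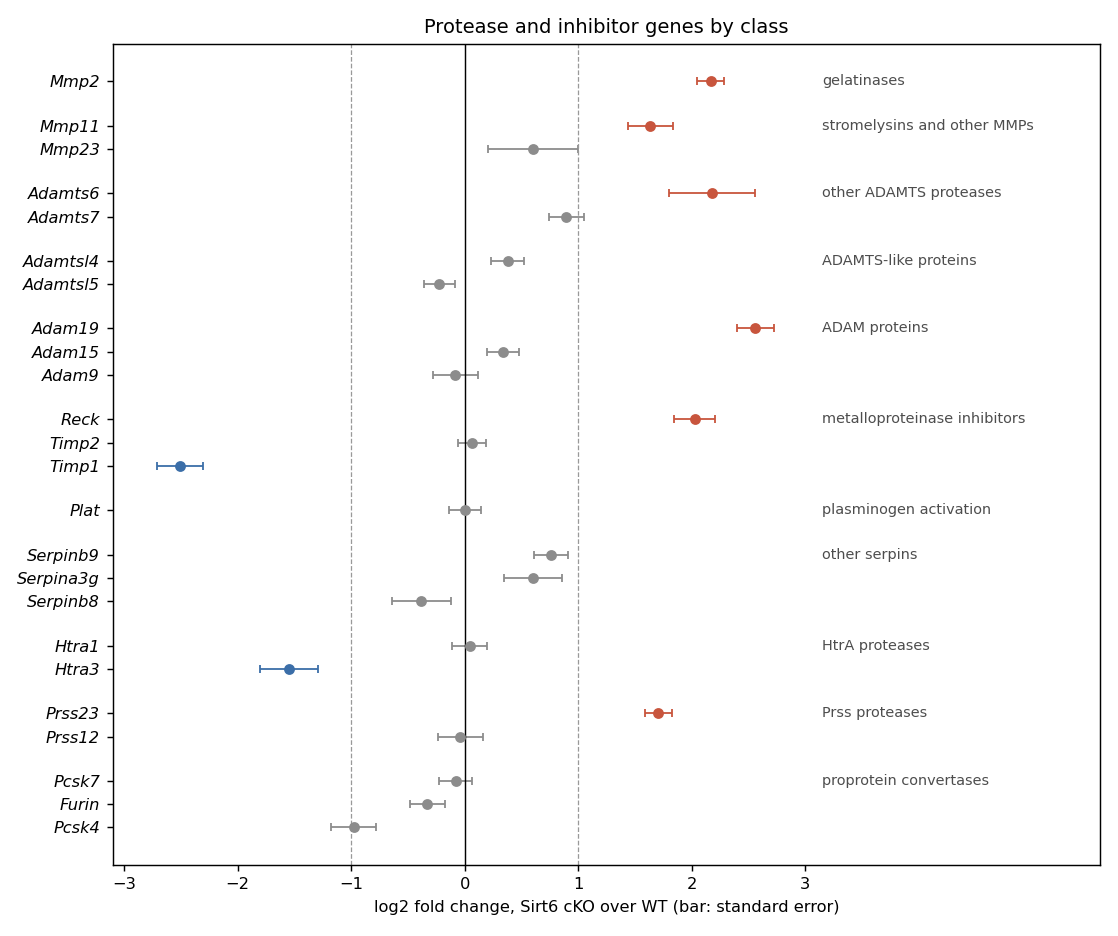
Log2 fold change of each of the 24 genes, Sirt6 cKO over WT (x axis), grouped by class, with the standard error as a bar. Red points are the 6 genes that rose, blue points the 2 that fell, grey points those not called, and dashed lines mark fold changes of 2 and 0.5.

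The gelatinase Mmp2 (ENSMUSG00000031740, chromosome 8 from 92827328 to 92853417, positions as in the deposited table, which match mouse build GRCm38), which digests denatured collagen and basement membrane, was the most abundant protease of the group. It reached raw counts of 7956, 9195 and 9181 across the WT replicates, against 42291, 44473 and 39010 across those of Sirt6 cKO. The 3 Sirt6 cKO samples lay far above the 3 WT samples, and within each genotype the values were close. Normalized for library size and composition by the TMM method, the count was 9074 ± 399 (SD, n = 3) for WT, against 40727 ± 2476 (SD, n = 3) for Sirt6 cKO. This is a 4.49-fold increase (log2 ratio 2.17 ± 0.12 SE, edgeR adjusted p = 7.19e-06). The other gelatinase on the list, Mmp9, was not analysed here.

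Mmp11 (stromelysin-3, ENSMUSG00000000901, chromosome 10 from 75923222 to 75932502) is unusual among secreted MMPs in being activated by furin inside the cell. Its raw counts were 612, 736 and 660 across the WT replicates, against 1932, 1822 and 2886 across those of Sirt6 cKO. The genotypes did not overlap, and Sirt6 cKO replicate 3 lay well above the other Sirt6 cKO samples. The log2 fold change was 1.64 (SE 0.20, edgeR adjusted p = 0.000333) and 1.41 without Sirt6 cKO replicate 3. Mmp23, a membrane-anchored MMP, was near the lower end of detection, at 18, 18 and 41 raw counts across the WT replicates against 45, 47 and 31 across those of Sirt6 cKO. Its genotypes overlapped, and the adjusted p was 0.240.

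The 2 ADAMTS proteases analysed are outside the aggrecanases, and Adamts6 rose. Adamts6 (ENSMUSG00000046169, chromosome 13 from 104287873 to 104494763), a relative of the microfibril-associated protease Adamts10, reached raw counts of 54, 244 and 213 across the WT replicates, against 782, 835 and 755 across those of Sirt6 cKO. WT replicate 1 deviated by -70.7% from the mean of the other WT samples after normalization, the widest such gap among the 24 members. The log2 fold change was 2.18 (SE 0.38, edgeR adjusted p = 0.00214), and it was 1.80 without WT replicate 1 (adjusted p = 2.35e-05). Adamts7, which is known to cut cartilage oligomeric matrix protein (Comp), reached raw counts of 944, 1102 and 1146 across the WT replicates, against 2144, 2471 and 1697 across those of Sirt6 cKO. Its genotypes did not overlap and its adjusted p was 0.00215, but its fold change of 1.86 was under the threshold. The value moved to 1.04 on the log2 scale, past the threshold, without Sirt6 cKO replicate 3. The Adamts7 row overlaps Tbc1d2b on the other strand, which had 2312 to 2653 raw counts in WT and 2868 to 3660 in Sirt6 cKO samples, with no overlap after normalization (log2 fold change 0.31, edgeR adjusted p = 0.093). The ADAMTS-like proteins, which resemble ADAMTS proteases but lack the catalytic domain, were not called, with log2 fold changes of 0.38 for Adamtsl4 (adjusted p = 0.0582) and -0.22 for Adamtsl5 (adjusted p = 0.218).

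Adam19 (ENSMUSG00000011256, chromosome 11 from 46055992 to 46147343), a sheddase best known for cutting neuregulins, had the largest increase of the group. Its raw counts were 455, 772 and 709 across the WT replicates, against 3561, 4211 and 4222 across those of Sirt6 cKO. The lowest Sirt6 cKO sample was above every WT sample by a wide margin. Normalized counts averaged 657 ± 106 (SD, n = 3) for WT, against 3882 ± 324 (SD, n = 3) for Sirt6 cKO, a 5.90-fold increase (log2 ratio 2.56 ± 0.16 SE, edgeR adjusted p = 1.18e-05). Adam15 and Adam9, which are widely expressed sheddases, were not called. Adam15 reached raw counts of 3526, 3434 and 3357 across the WT replicates, against 4685, 4757 and 4577 across those of Sirt6 cKO. Its genotypes did not overlap, and its log2 fold change was 0.34 (edgeR adjusted p = 0.0773), or 0.47 without WT replicate 1 (adjusted p = 0.00186), under the fold threshold in both. Adam9 reached raw counts of 4054, 8487 and 8372 across the WT replicates, against 6296, 6911 and 7326 across those of Sirt6 cKO, so the WT samples lay on both sides of the Sirt6 cKO samples. Its log2 fold change was -0.08 (adjusted p = 0.761), and without WT replicate 1 it was -0.29 (adjusted p = 0.0248), still under the fold threshold.

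**Figure D2:**
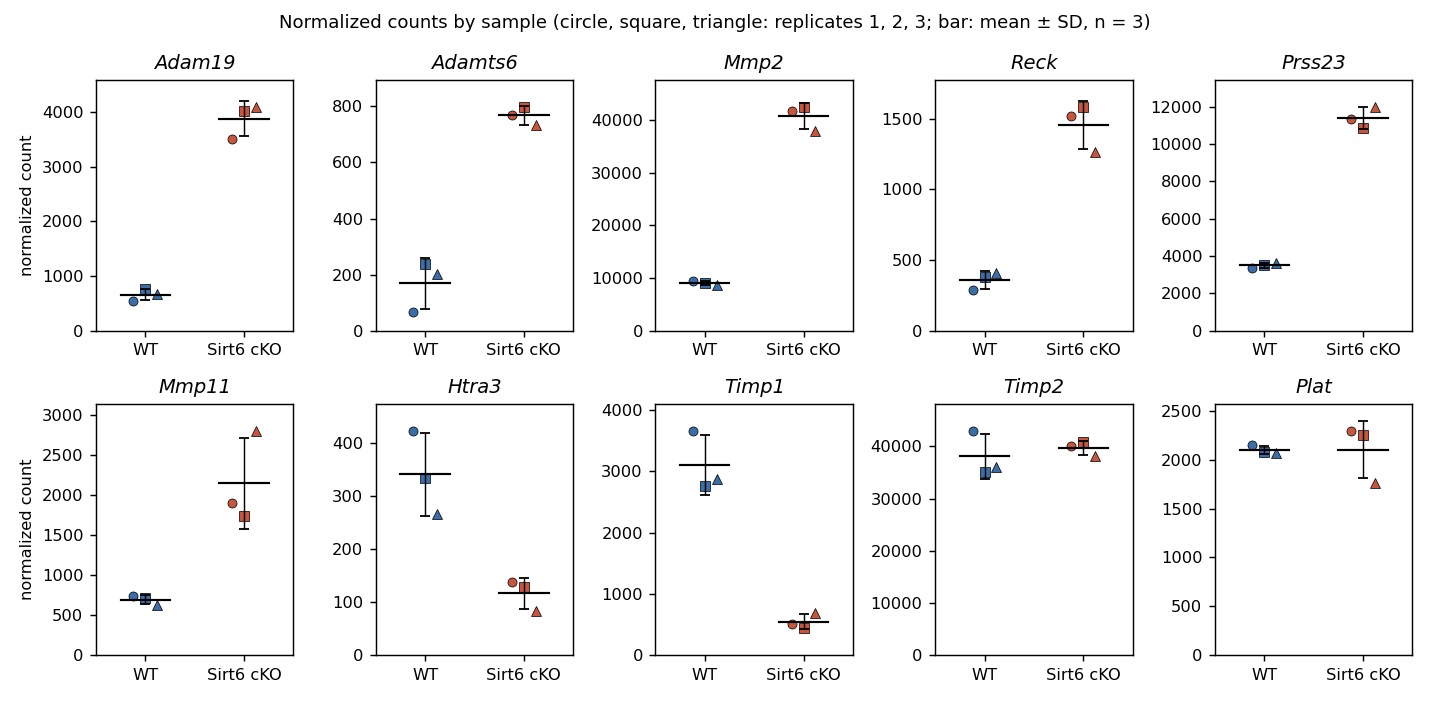
Normalized count (y axis, from 0) in each of the 3 WT and 3 Sirt6 cKO samples for the 8 genes called and for Timp2 and Plat, which were not; symbols mark replicates and the bar is the mean ± SD. The genotypes are separate in the 8 called genes and overlap in Timp2 and Plat.

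Of the 3 metalloproteinase inhibitors analysed, Timp1 fell, Reck rose and Timp2 was not called. Timp1 (ENSMUSG00000001131, chromosome X from 20870166 to 20874735) is a secreted inhibitor with a broad range of MMP targets. It reached raw counts of 3060, 2837 and 3013 across the WT replicates, against 506, 466 and 711 across those of Sirt6 cKO, so every Sirt6 cKO sample was far below every WT sample. Normalized counts averaged 3098 ± 489 (SD, n = 3) for WT, against 545 ± 129 (SD, n = 3) for Sirt6 cKO, a 5.68-fold decrease (log2 ratio -2.51 ± 0.20 SE, edgeR adjusted p = 4.02e-05). Timp1 lies within the span of Syn1, a gene on the other strand with 991 to 1226 raw counts per sample. The Syn1 row showed a log2 ratio of -0.34 (adjusted p = 0.0783). The study's methods describe strand-specific libraries made with a NEBNext kit, whereas the sample labels name both a KAPA stranded kit and an Illumina TruSeq kit. Whether reads were counted by strand is not given in the sources used here, so reads of the pair cannot be told apart with certainty.

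Timp2 (ENSMUSG00000017466, chromosome 11 from 118301069 to 118355740), which both inhibits MMPs and helps to activate pro-Mmp2 at the cell surface, was not called. Its raw counts were 35940, 36034 and 37987 across the WT replicates, against 40600, 42774 and 39334 across those of Sirt6 cKO. After normalization WT replicate 1 was the highest of the 6 samples and the genotypes overlapped. The row also overlaps Cep295nl on the same strand, which had 0 to 6 raw counts per sample. The log2 fold change was 0.06 (SE 0.12, edgeR adjusted p = 0.709). Reck (ENSMUSG00000028476, chromosome 4 from 43875530 to 43944806) reached raw counts of 239, 388 and 428 across the WT replicates, against 1540, 1658 and 1300 across those of Sirt6 cKO. It rose 4.07-fold (log2 ratio 2.03 ± 0.18 SE, edgeR adjusted p = 6.17e-05). Timp3 and Timp4 were not analysed here.

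Ratios of 2 genes within a sample do not depend on how libraries are scaled. They were formed after the values had been seen, from raw counts per kilobase of exon. The ratio of Mmp2 to Timp2 was 0.284, 0.327 and 0.310 across the WT replicates, against 1.34, 1.33 and 1.27 across those of Sirt6 cKO. Per kilobase, Mmp2 was thus below Timp2 in every WT sample and above it in every Sirt6 cKO sample. The crossing depends on the summed exon lengths, 3038 bases for Mmp2 and 3896 for Timp2. In raw counts these genes were close in Sirt6 cKO, and in replicate 3 Mmp2 (39010) was below Timp2 (39334). The ratio of Mmp2 to Timp1 was 0.760, 0.947 and 0.891 across the WT replicates, against 24.4, 27.9 and 16.0 across those of Sirt6 cKO. These pairs compare 1 enzyme with 2 of its inhibitors, and the genotypes do not overlap in either. The ratio of Timp1 to Timp2 was 0.356 ± 0.016 (SD, n = 3) for WT, against 0.0606 ± 0.017 (SD, n = 3) for Sirt6 cKO samples, again with no overlap. For each of these 3 ratios an exact two-sided permutation test gave p = 0.1, the smallest that 3 samples against 3 allow, so none of the 8 ratios computed could pass 0.05, adjusted or not. The ratio of Mmp2 to Reck overlapped between genotypes, at 33.7 to 52.4 in WT and 42.2 to 47.2 in Sirt6 cKO samples (exact permutation p = 0.7). So did the ratio of Mmp11 to Mmp2, at 0.0849 to 0.0945 in WT and 0.0484 to 0.0874 in Sirt6 cKO samples (exact permutation p = 0.2). The ratio of Adam15 to Adam9 overlapped too, at 0.310 to 0.672 in WT and 0.483 to 0.575 in Sirt6 cKO samples (exact permutation p = 0.4).

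**Figure D3:**
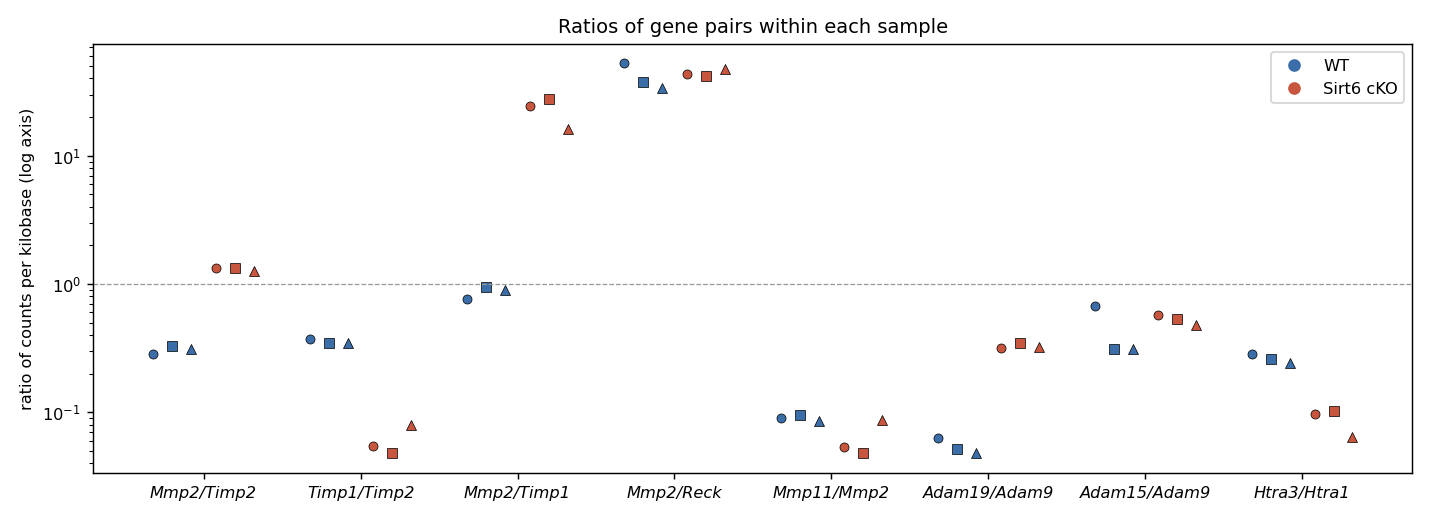
Ratio of raw counts per kilobase of exon for 8 gene pairs (log axis) in each sample, WT in blue and Sirt6 cKO in red, with symbols for replicates 1, 2 and 3. The genotypes are separate in 5 pairs and overlap in Mmp2 to Reck, Mmp11 to Mmp2 and Adam15 to Adam9.

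Among secreted serine proteases, Prss23 rose and Htra3 fell. Prss23 (ENSMUSG00000039405, chromosome 7 from 89507785 to 89517586) reached raw counts of 2799, 3602 and 3800 across the WT replicates, against 11491, 11317 and 12350 across those of Sirt6 cKO, a 3.26-fold increase after normalization (log2 ratio 1.71 ± 0.12 SE, edgeR adjusted p = 1.77e-05). Its name rests on 0.505 of the joint span shared with the RefSeq gene, just past the limit of 0.5. Htra3 (ENSMUSG00000029096, chromosome 5 from 35652041 to 35679782), a secreted protease known to bind TGF-beta family ligands, reached raw counts of 353, 341 and 279 across the WT replicates, against 140, 133 and 86 across those of Sirt6 cKO. It fell by 1.55 on the log2 scale (SE 0.26, edgeR adjusted p = 0.00167).

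Its relative Htra1, which degrades several matrix proteins, reached raw counts of 928, 979 and 857 across the WT replicates, against 1087, 971 and 992 across those of Sirt6 cKO, and its adjusted p was 0.839. The Htra1 row overlaps a row on the other strand, ENSMUSG00000030849, whose log2 fold change was 1.05 (adjusted p = 0.00114). The ratio of Htra3 to Htra1 per kilobase was 0.284, 0.260 and 0.243 across the WT replicates, against 0.0961, 0.102 and 0.0647 across those of Sirt6 cKO. Prss12 (neurotrypsin, which cuts agrin) ranged from 203 to 227 raw counts in WT and from 185 to 246 in Sirt6 cKO samples.

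Of the plasminogen activation list only Plat, tissue plasminogen activator, was analysed. It reached raw counts of 1801, 2128 and 2180 across the WT replicates, against 2330, 2352 and 1817 across those of Sirt6 cKO, with a log2 fold change of 0.00 (SE 0.14, edgeR adjusted p = 0.991). Its mean was nearly equal in the genotypes, and after normalization Sirt6 cKO replicate 3 lay below the WT samples and the other Sirt6 cKO samples above them. None of the 3 serpins was called. Serpinb9, an inhibitor of granzyme B, reached raw counts of 264, 374 and 403 across the WT replicates, against 635, 585 and 635 across those of Sirt6 cKO, and its log2 fold change of 0.76 had an adjusted p of 0.00384, under the fold threshold. Serpina3g, which inhibits cathepsins, had 53 to 58 raw counts in WT and 77 to 97 in Sirt6 cKO samples (adjusted p = 0.0778). Serpinb8, an inhibitor of furin, had 149 to 320 and 145 to 229 (adjusted p = 0.254). These serpins belong to families with close paralogs, and how reads that match several genes were counted is not given in the sources used here.

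Proprotein convertases cut the propeptides of ADAM, ADAMTS and several MMP proteins, and 0 of the 3 analysed were called. Furin, the best known of them, reached raw counts of 4670, 4288 and 4435 across the WT replicates, against 3781, 4198 and 3472 across those of Sirt6 cKO. Each Sirt6 cKO value was below each WT value, and the log2 fold change was -0.33 (SE 0.16, edgeR adjusted p = 0.109). Pcsk7 overlaps Tagln and Rnf214 on the other strand and showed a log2 ratio of -0.08 (adjusted p = 0.683). Pcsk4, known mainly from germ cells, reached raw counts of 655, 513 and 631 across the WT replicates, against 293, 311 and 379 across those of Sirt6 cKO. It lay just short of the fold threshold at a log2 fold change of -0.98 (adjusted p = 0.00465). It crossed the threshold when WT replicate 2, WT replicate 3 or Sirt6 cKO replicate 3 was left out, with -1.11 as the lowest value.

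Levels of different genes were compared as normalized counts scaled to a common library size (CPM) and divided by kilobases of exon. In WT, Timp2 had the highest level at 339.6 ± 38.0 (SD, n = 3), followed by Timp1 at 121 ± 19.1 and Mmp2 at 104 ± 4.57, and the ranges of Timp1 and Mmp2 overlapped. In Sirt6 cKO, Mmp2 stood first at 466 ± 28.3, above Timp2 at 354 ± 12.3 and Prss23 at 123 ± 6.31, with no overlap between these neighbours. The order of Mmp2 and Timp2 there rests on their exon lengths, since their raw counts were close. Timp1 moved from rank 2 to rank 9 of 24, at 21.3 ± 5.04, where it overlapped Plat and Adamtsl4. Adam19 moved from rank 17 to rank 11 and Reck from rank 21 to rank 16. Adam9 held rank 4 in both genotypes. Of the 23 pairs of neighbours in the order of levels, 13 overlapped in WT and 14 in Sirt6 cKO, and the ranks of those pairs are not separated.

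**Figure D4:**
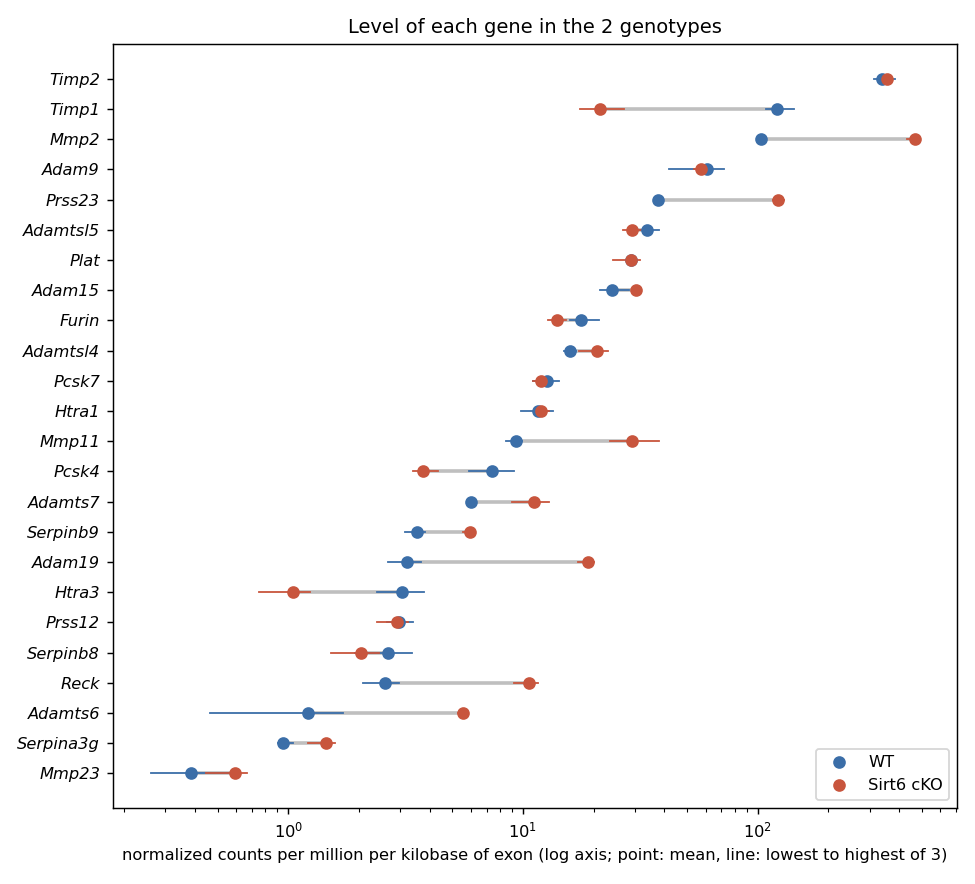
Normalized CPM per kilobase of exon (log axis) of the 24 genes, ordered by their WT level, with the mean as a point and the lowest to highest of 3 samples as a line. On this scale, which depends on exon length, Mmp2 passes Timp2 in Sirt6 cKO, and Timp1 drops from 121 to 21.3.

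The median coefficient of variation of the members was 14.3% in WT and 10.9% in Sirt6 cKO samples. It was 4.82% between WT replicates 2 and 3. After normalization WT replicate 1 was the highest WT sample in 15 of 24 members and the lowest in 7. All 8 calls held without it, with log2 fold changes from 1.68 (Mmp11 and Prss23) to 2.44 (Adam19) for the genes that rose, and of -1.36 for Htra3 and -2.37 for Timp1. The genotypes did not overlap in 15 of the 24 members, which is 62.5%, against 60.9% of all tested rows, again close to the background.

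**Figure D5:**
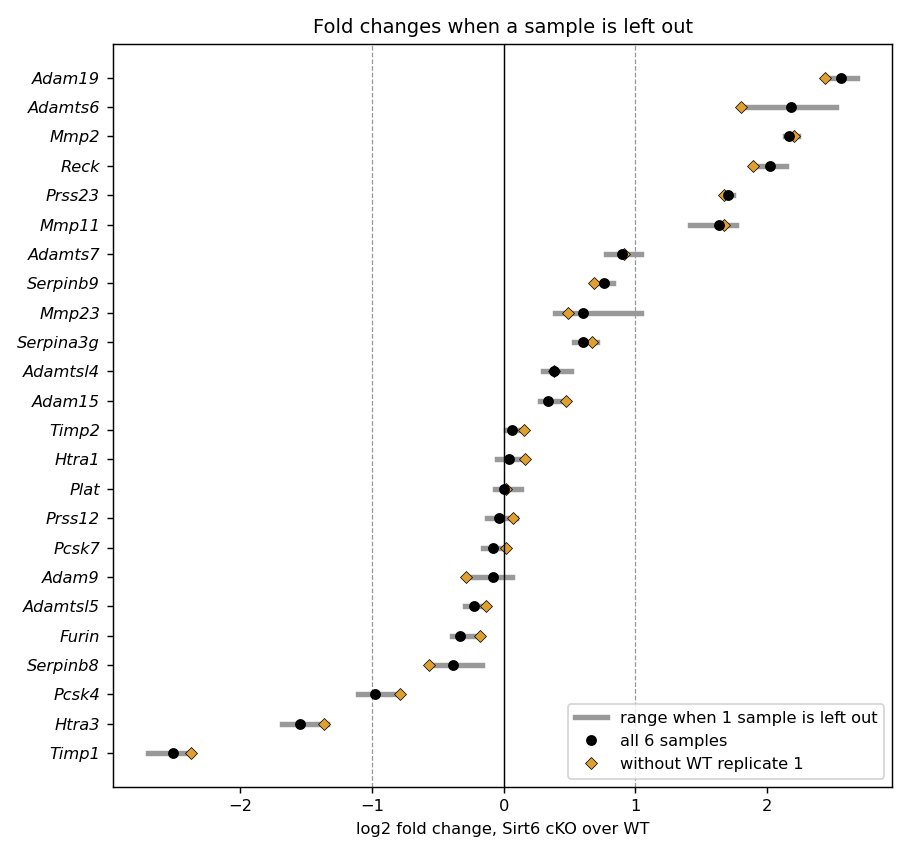
Log2 fold change of each gene with all 6 samples (black), without WT replicate 1 (orange diamonds) and over the 6 fits that each left out 1 sample (grey range). The 8 called genes stay outside the dashed lines at fold changes of 2 and 0.5, while the ranges of Adamts7, Mmp23 and Pcsk4 reach past them.

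Genes that assist or clear these proteases were taken from a list of 22, of which 12 were analysed in the rows that line up. Of these, 2 rose and 1 fell, and 4 more passed the adjusted p below the fold threshold, against 15.9% called and 46.8% past the adjusted p over all tested rows, so these counts show nothing particular to the list. Rhbdf2 (iRhom2), which carries Adam17 to the cell surface, reached raw counts of 25, 22 and 27 across the WT replicates, against 291, 296 and 262 across those of Sirt6 cKO (log2 fold change 3.42, adjusted p = 1.51e-05 from edgeR's test). Its relative Rhbdf1 had 3522 to 3541 and 3497 to 3794 raw counts (adjusted p = 0.795). Tspan15, a tetraspanin partner of Adam10, was at 8, 0 and 0 raw counts in the WT replicates, against 91, 73 and 59 in those of Sirt6 cKO. Its relatives Tspan5, Tspan14 and Tspan17 had far higher counts in every sample and were not called. Their log2 fold changes were 0.30, -0.22 and 0.19 (edgeR adjusted p = 0.104, 0.228 and 0.424). Anxa2, a subunit of a cell surface receptor for plasminogen and tissue plasminogen activator, reached raw counts of 51402, 43845 and 46436 across the WT replicates, against 20457, 20549 and 20751 across those of Sirt6 cKO (log2 fold change -1.31, adjusted p = 0.000338 from edgeR's test). Plgrkt, another plasminogen receptor, went the other way without overlap, under the fold threshold (log2 fold change 0.74, adjusted p = 0.0036 from edgeR's test). Lrp1, the endocytic receptor that clears many proteases with their inhibitors, had a log2 fold change of 0.74, past the adjusted p (0.00126) but not the fold threshold.

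Of 15 other protease inhibitors 2 were analysed, the cysteine protease inhibitors Cst3 and Cstb, and neither was called. Both passed the adjusted p under the fold threshold without overlap, in opposite directions. The log2 fold change was 0.93 for Cst3 (edgeR adjusted p = 0.00412) and -0.70 for Cstb (adjusted p = 0.0297). Of 15 matrix substrates 4 were analysed. Dcn, Lum and Comp rose, and Bgn passed the adjusted p under the fold threshold (log2 fold change 0.94, edgeR adjusted p = 0.000248). Over all tested rows 8.72% were higher. Dcn and Lum also stand among the synovial fibroblast markers, and Comp among the chondrocyte markers, so the counts of these lists are not independent. Comp reached raw counts of 15, 14 and 28 across the WT replicates, against 193, 322 and 182 across those of Sirt6 cKO, a log2 fold change of 3.52 (adjusted p = 0.000115 from edgeR's test).

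Markers of other cells were also examined, and they did not all go the same way. Of 9 analysed synovial fibroblast markers, from a list of 12, 5 rose and 0 fell, against 8.72% higher and 7.15% lower over all tested rows. Their summed normalized count was 338436 to 345583 in WT and 1051960 to 1212550 in Sirt6 cKO samples, most of it from Col1a1 and Col1a2. Cd34 and Pdpn were lower in every Sirt6 cKO sample than in any WT sample. Cd34 passed the adjusted p under the fold threshold (log2 fold change -0.54, edgeR adjusted p = 0.00536), and Pdpn missed it (-0.36, adjusted p = 0.0563). Has1 and Thy1 also missed the adjusted p, and their genotypes overlapped. Of the 5 chondrocyte markers 3 rose and 0 fell, beside the same shares over all rows, with a sum of 5739 to 6257 in WT and 11302 to 14160 in Sirt6 cKO samples. Sox9, which was not called (log2 fold change 0.62), made up most of that sum in both genotypes, and Col11a1, which rose, most of the remainder in Sirt6 cKO. Col9a3 was lower in every Sirt6 cKO sample than in any WT sample, at a log2 fold change of -0.53 (edgeR adjusted p = 0.0756). Of the 2 osteoblast markers analysed, Spp1 passed the adjusted p under the fold threshold (log2 fold change 0.53, edgeR adjusted p = 0.00853) and Runx2 did not pass (0.28, adjusted p = 0.202). Both mural and muscle markers analysed also passed it under the fold threshold without overlap, Des at 0.96 (adjusted p = 0.00351) and Acta2 at 0.53 (adjusted p = 0.0477). Cd68 was the 1 macrophage marker analysed, at 41 to 50 raw counts in WT and 6 to 52 in Sirt6 cKO samples. Endothelial, osteoclast, adipocyte and blood markers were not analysed here. In bulk RNA, more cells of a type and more RNA per cell cannot be told apart, and the part of these markers in the changes of Mmp2, Mmp11, Adam19, Adamts6, Reck, Prss23, Timp1 and Htra3 was not tested.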

How the data were processed

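RNA-seq was measured in 3 WT and 3 Sirt6 cKO samples, grouped by the sample labels. The authors deposited 1 table of raw counts per Ensembl gene, not normalized, with exon positions and summed exon length. The submitters' processing notes name cutadapt, HISAT2 2.0.5, StringTie and hg19; the counter and its strand setting are not given in the sources used here. Positions matched mouse GRCm38.p6: 91.0% of rows shared at least 0.5 of their joint span with a RefSeq gene, against 8.89% after a shift of 1 Mb. In the identifier ranges used, longer genes had higher counts in their own row (Spearman's rho 0.250 and 0.295 across genes) but not in rows up to 8 away (at most 0.041).

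Genotypes were compared on these counts in R 4.3.3 with edgeR 4.0.16 (TMM, filterByExpr, glmQLFit, glmQLFTest, genotype as the term, Benjamini-Hochberg adjustment over 11246 rows). Standard errors (SE) were derived from the log2 ratio and its F statistic. On simulated counts, drawn independently for each sample, 193 of 200 changed genes and 6 unchanged genes were called among 11129 genes. All planted changes were larger than the fold threshold and lay in genes with enough counts. No replicate was made to deviate, and changed genes were rarer than the genes called in the real data. The simulation therefore checks only that the fit recovers such changes, and gives no error rate for these data. By rule, the genes named were those called, those of the classes reported apart (aggrecanases, collagenases, gelatinases, inhibitors, plasminogen activation) and Sirt6; the other members given by sample, and the pathway genes outside the group that are named with values, were chosen after their values were seen. A planned split of ADAM proteins by their zinc-binding motif was not made. Members and lists were chosen with earlier results of these data known. Deviations from the genotype mean correlated at 0.262, 0.104 and 0.136 between samples with the same replicate number. Samples with different numbers were not compared in this way, so these values do not show a pairing. Replicate number entered an alternative fit as a blocking term, as planned, with the numbers read from sample titles.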

Additional observations from a re-analysis of the deposited data

How the results depend on the processing

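The 8 calls were repeated with RLE, upper-quartile and total-count scaling, every row kept, a minimum of 10 counts in each sample, DESeq2 1.42.0, limma-voom (limma 3.58.1), the replicate block, the rows that line up alone, and without each sample in turn. Each of the 8 kept its direction and its call in all 15 of these. The number of higher members lay between 6 and 7 and of lower members between 2 and 3 over the fits that left out 1 sample; it was 8 and 3 with no fold threshold, 6 and 2 with glmTreat against a fold of 1.5 and with an adjusted p under 0.01, and 5 and 2 when 0.9 of the span had to match, which drops Prss23. With the replicate block the counts were again 6 and 2, and the block changed no call among the members. Plat, whose log2 fold change was near 0, changed sign, to -0.00011 with no filter, -0.0072 with limma-voom, -0.0072 with the replicate block, and to between -0.064 and 0.13 over the fits without 1 sample. The median of all tested rows moved by at most 0.08 on the log2 scale.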
